A study of Mus musculus with 37 samples.

Results

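The complement genes of the mouse liver were followed across 3 doses of HFPO-DA, the short-chain perfluoroalkyl compound hexafluoropropylene oxide dimer acid, given as its ammonium salt. The set was chosen by name, as 35 genes of the complement system, and all 35 were among the 21450 gene symbols of the assay. They comprised 6 genes of the classical arm, 7 of the lectin arm, 4 of the alternative arm with C3, 7 of the terminal arm, 9 regulators and 2 receptors of the anaphylatoxins. A total of 58 probes measured them, and each gene was read on its probe with the highest total count. Of the 35 genes, 33 passed the filter on low counts. The adipsin gene Cfd and the C3a receptor gene C3ar1 did not pass it and were not tested. TempO-Seq counts ligated pairs of short probes that hybridized side by side on a transcript. Its counts are not levels per length, and values were compared only within a gene.

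All 37 livers came from wild-type CD1 mice, the outbred stock Crl:CD1(ICR), that received vehicle or HFPO-DA daily by oral gavage, and RNA was read from sections of formalin-fixed, paraffin-embedded liver. The male groups held 5 controls given deionized water, 5 mice at 0.1, 5 at 0.5 and 4 at 5 mg/kg of HFPO-DA per day, and the corresponding female groups held 5, 5, 4 and 4 mice. Males were about 6 weeks old at the first dose and received 84 to 85 doses, from 70 days before mating to the end of the 14 days of mating. Females were about 11 weeks old, received 53 to 65 doses from 14 days before mating, and were killed on lactation day 20 or 21. Age, number of doses and lactation therefore cannot be told apart from sex in any comparison of males with females. Mice are named below by group and by a number that follows the order of the samples.

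Complement is a cascade of plasma proteins that is made mostly by hepatocytes. Antibody (through C1q, C1r and C1s), sugars on microbes (through mannose-binding lectin, ficolins and the MASP proteases) or spontaneous turnover of C3 each lead to a C3 convertase. Cleaved C3 marks surfaces for phagocytosis, and a C5 convertase then starts the membrane attack complex of C5, C6, C7, C8 and C9. Soluble and membrane-bound regulators such as factor I, C4-binding protein, C1 inhibitor and CD59 limit each step.

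Total counts ranged from 2101495 to 9098192 in males at 5 mg/kg and from 6947711 to 9365709 in male controls, and all females had at least 7952605. Of the 37 mice, 4 had fewer than 5000000 counts, and all 4 were males that had received HFPO-DA, among them mice 1 and 3 of the 4 at 5 mg/kg. One library stood apart. Male control 2 had 133060 CPM (counts scaled to a common library size of 1000000 after TMM normalization) summed over the 14 acute phase genes examined, whereas the other male controls had 8340, 9442, 9816 and 10664. Its Saa1, the major acute phase serum amyloid A of mice, was at 56724 CPM against 98.2 to 262 in the other 4. Male 0.1 mg/kg 1 had the next highest sum, 40185 CPM, and the remaining 35 mice lay between 5135 and 15123. The highest of these 35 was female 5 mg/kg 2, with Saa1 at 2271 CPM against 112 to 479 in the other females at 5 mg/kg. Several complement genes are themselves acute phase genes, so the main male counts and some male fold changes are given with and without male control 2. Where no value without it is given, the male results include that mouse. Of the hepatocyte markers, 6 of 7 were in the table (Alb, Ttr, Apob, Cps1, Asgr1 and Hnf4a), and all 6 had counts in each group.

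**Figure D1:**
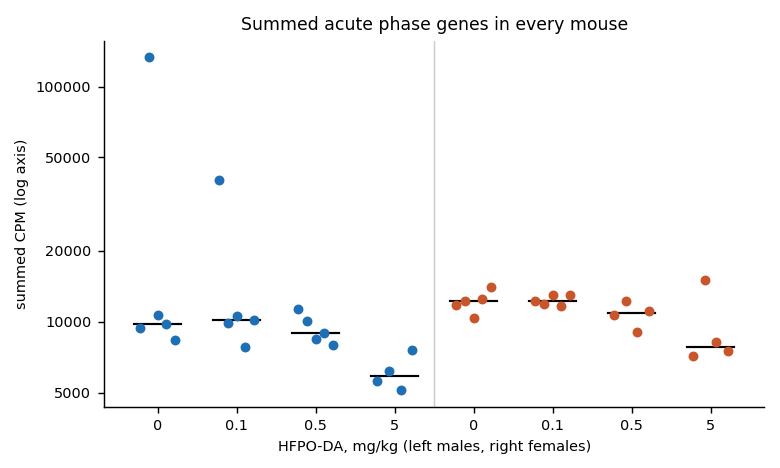
Summed CPM of 14 acute phase genes on a log axis, 1 point per mouse and a line at the median of each group, for males (blue, left) and females (orange, right) by dose. Male control 2, at 133060 CPM, and male 0.1 mg/kg 1, at 40185 CPM, lie above all others.

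At 5 mg/kg, every complement gene that passed the test by edgeR was lower than in controls, in both sexes. In males, 18 of the 33 members tested were lower at an adjusted p under 0.10, the threshold used throughout, with a median log2 fold change of -0.76 over the 33. Over all 18570 probes, 8.49% were lower and 4.21% were higher in this comparison. In females, 9 of the 33 were lower, with a median of -0.36, where 2.26% of all probes were lower and 2.26% were higher. By unadjusted p below 0.05 there were 20 members in males and 12 in females, all of them lower, against 23.3% and 12.3% of all probes in either direction. DESeq2 called 17 members lower and 1, Cpn1, higher in males, and limma-voom called 15 lower and 0 higher. Of all 18570 probes, DESeq2 called 1686 lower and 1117 higher in males, and limma-voom 1409 and 755. In females DESeq2 called 11 lower, with C8g and Vtn added, and limma-voom 10, with Vtn added. There DESeq2 called 631 and limma-voom 768 of all probes lower, against 420 by edgeR. The main fit shared 1 estimate of the spread between the sexes. With each sex fitted apart, 15 members passed in males and 12 in females, where Colec10, C8g and Vtn were added. Over all probes the order of the sexes then turned. In males 755 of 16103 probes were lower and 365 higher, and in females 1152 of 17038 were lower and 941 higher. The median of all probes was itself at -0.12 in males after TMM scaling, and with library size alone it was at 0.08 and the members' median at -0.51, with 15 members lower and 1 higher. With that scaling, 1100 probes were lower and 1339 higher, so that 45.1% of all probes called in males were lower, against 66.9% with TMM. Without male control 2, 15 members were lower in males, all of them among the 18, and the background was 7.61%. The 3 that no longer passed were C1ra, Fcna and C3. Without the 4 mice of fewer than 5000000 counts, 15 members were lower, where 1187 of 20794 probes were lower. Of the 18, C1ra, C2, C3, C6 and C8g were lost, and Mbl2 and Cd59a were gained.

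The 8 genes lower in both sexes were C1ra, Masp1, Cfb, Hc, C8b, C9, Cfi and Cpn2. By edgeR a further 10 passed the threshold in males and not in females (C2, C4b, Fcna, C3, C6, C8a, C8g, C4bp, Serping1 and Vtn), and 1 in females and not in males (Mbl2). This split depended on the settings. Vtn also passed in females by DESeq2, limma-voom and a robust edgeR fit, and C8g by DESeq2 and with each sex fitted apart. Colec10 passed in females with each sex fitted apart and without the 4 mice of lowest total count. C1ra no longer passed in males by limma-voom, with library size alone or with each sex fitted apart. Masp1 was lost there with library size alone, and C3 and Fcna by limma-voom and with each sex fitted apart. Mbl2 passed in males on leaving out those 4 mice, or male control 5 or male 5 mg/kg 1 alone. Every treated mouse lay below every control for 12 of the 33 members in males, where this held for 4.8% of all probes, and for 7 of the 33 in females, where it held for 4.31%. In males the terminal arm had the largest share of members that were lower, 6 of 7, with a median log2 fold change of -1.23. The regulators counted 5 of 9 (median -0.83), the classical arm 3 of 6 (median -0.55), the alternative arm with C3 2 of 3 (median -0.53) and the lectin arm 2 of 7 (median -0.44). In females these counts were 3 of 7 (median -1.04), 2 of 9 (median -0.31), 1 of 6 (median 0.11), 1 of 3 (median -0.40) and 2 of 7 (median -0.60). The medians of the terminal arm include C7 and those of the alternative arm include Cfp. Both genes had counts too low for a usable fold change, and the medians of these small arms depend on them. Without male control 2 the male terminal arm and regulators counted 6 and 5 again, the classical arm 2, the alternative arm with C3 1 and the lectin arm 1. The difference between arms was not tested. In liver sections, fewer cells of a type and less RNA per cell cannot be told apart.

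**Figure D2:**
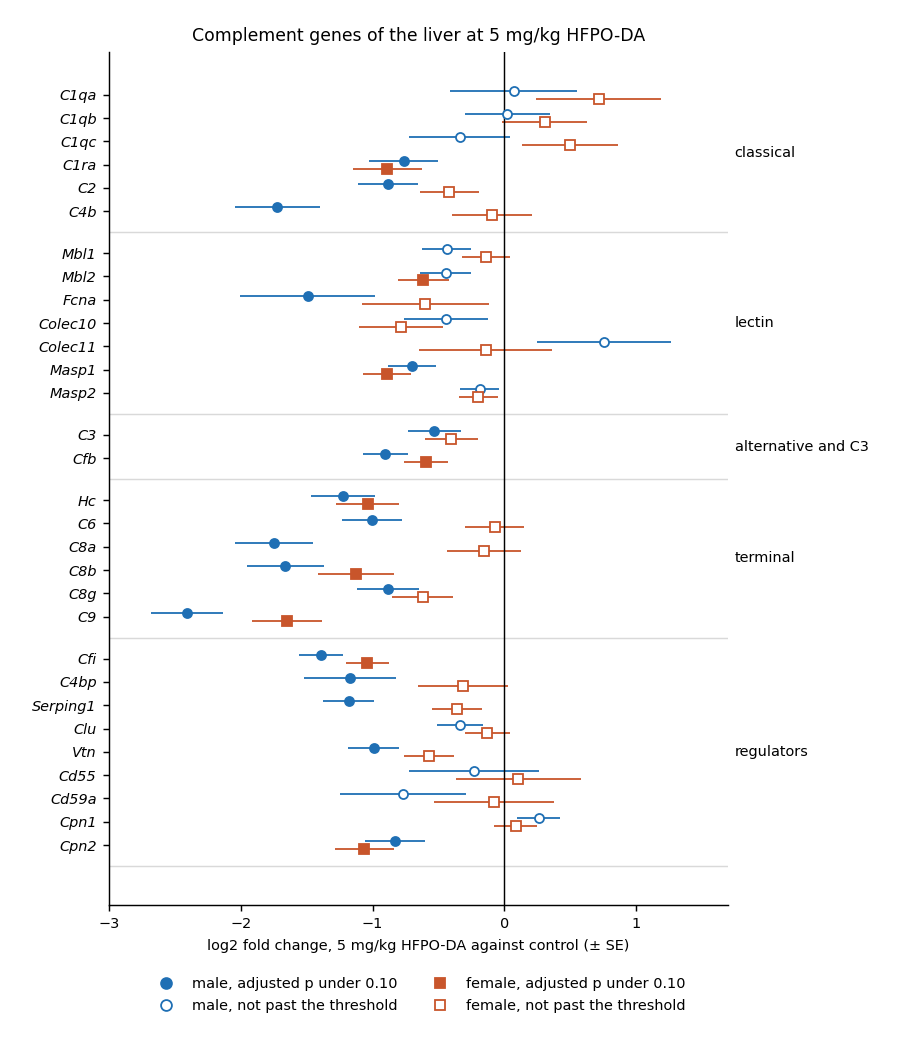
Log2 fold change at 5 mg/kg against control of the same sex (x axis, bars are SE) for 30 complement genes, grouped by arm, in males (circles) and females (squares). Filled symbols passed an adjusted p of 0.10, and every filled symbol lies left of 0, the lowest being C9 at -2.41 in males and -1.65 in females. The 3 tested genes that reached a count of 0 in each sex (Cfp, C7 and C5ar1) are not drawn.

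The terminal arm showed the largest decreases. C9 encodes the protein that polymerizes into the pore of the membrane attack complex. C9 was at 1918, 1293, 1302, 1296 and 2006 CPM in male controls and at 507, 299, 144 and 225 CPM in males at 5 mg/kg. In females C9 was at 384, 687, 617, 489.5 and 740.5 CPM in controls and at 161, 232, 139.6 and 211 CPM at 5 mg/kg. All treated mice thus lay below all controls of their sex. C9 was 5.31-fold lower in males (log2 fold change -2.41, SE 0.27, adjusted p = 1.9e-08 by edgeR) and 3.14-fold lower in females (-1.65, SE 0.26, adjusted p = 3.21e-05 by edgeR). Leaving out male control 2 gave -2.50 in males.

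C8a and C8b encode the alpha and beta chains of C8, which anchor the complex in the membrane, and C8g encodes its gamma chain. C8b was at 224, 207, 242, 229 and 225 CPM in male controls and at 59, 86.1, 56.6 and 82.4 CPM in males at 5 mg/kg. In females C8b was at 41.2, 55.7, 183, 84.4 and 69.5 CPM in controls and at 40.7, 58.4, 32.7 and 27.6 CPM at 5 mg/kg. The male groups were fully apart, whereas the female groups overlapped and female control 3, at 183 CPM, was above the other 4, which reached 84.4 CPM at most. The C8b log2 fold change was -1.66 (SE 0.29, adjusted p = 9.67e-05 by edgeR) in males and -1.12 (SE 0.29, adjusted p = 0.0149 by edgeR) in females. Without female control 3 the C8b value in females was -0.66 and no longer passed the threshold.

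C8a was at 755, 1213, 1005, 973 and 612 CPM in male controls and at 274, 261, 150.4 and 396 CPM in males at 5 mg/kg, again with no overlap. In females C8a was at 122, 136, 275, 116 and 232 CPM in controls and at 112, 284, 163 and 74.4 CPM at 5 mg/kg, and the groups overlapped. The C8a log2 fold change was -1.75 (SE 0.30, adjusted p = 5.24e-05 by edgeR) in males and -0.15 (SE 0.28, not past the threshold) in females. C8g was lower in males (log2 fold change -0.88, SE 0.24, adjusted p = 0.0124 by edgeR), with 218 to 362 CPM at 5 mg/kg and 322 to 716 CPM in controls. Without the 4 mice of fewer than 5000000 counts the male C8g value was -0.80 and did not pass. In females the C8g value was -0.62 (SE 0.23, adjusted p = 0.183 by edgeR).

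Hc, the mouse gene of C5, the source of the anaphylatoxin C5a and the first protein of the membrane attack complex, was at 382, 405, 261, 271 and 199 CPM in male controls and at 108, 123, 123 and 165 CPM in males at 5 mg/kg. In females Hc was at 199.8, 368, 294, 361 and 288 CPM in controls and at 118, 208, 84.1 and 178 CPM at 5 mg/kg. The male groups were apart, and in females 1 treated mouse exceeded the lowest control. Hc was lower in both sexes, by a log2 fold change of -1.23 (SE 0.24, adjusted p = 0.000464 by edgeR) in males and -1.04 (SE 0.24, adjusted p = 0.00483 by edgeR) in females. C6, whose protein binds C5b, was lower in males only by this call, from 221 to 532 CPM in controls to 113 to 238 CPM at 5 mg/kg (log2 fold change -1.01, SE 0.23, adjusted p = 0.00242 by edgeR). Without the 4 mice of fewer than 5000000 counts the male C6 value was -0.64 and did not pass. The female groups of C6 lay at 33.7 to 51 and at 34.7 to 49 CPM (log2 fold change -0.07, SE 0.22). C7 had a count of 0 in some mice of both sexes and at most 6.69 CPM in any male control or male at 5 mg/kg, which gave no usable fold change.

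**Figure D3:**
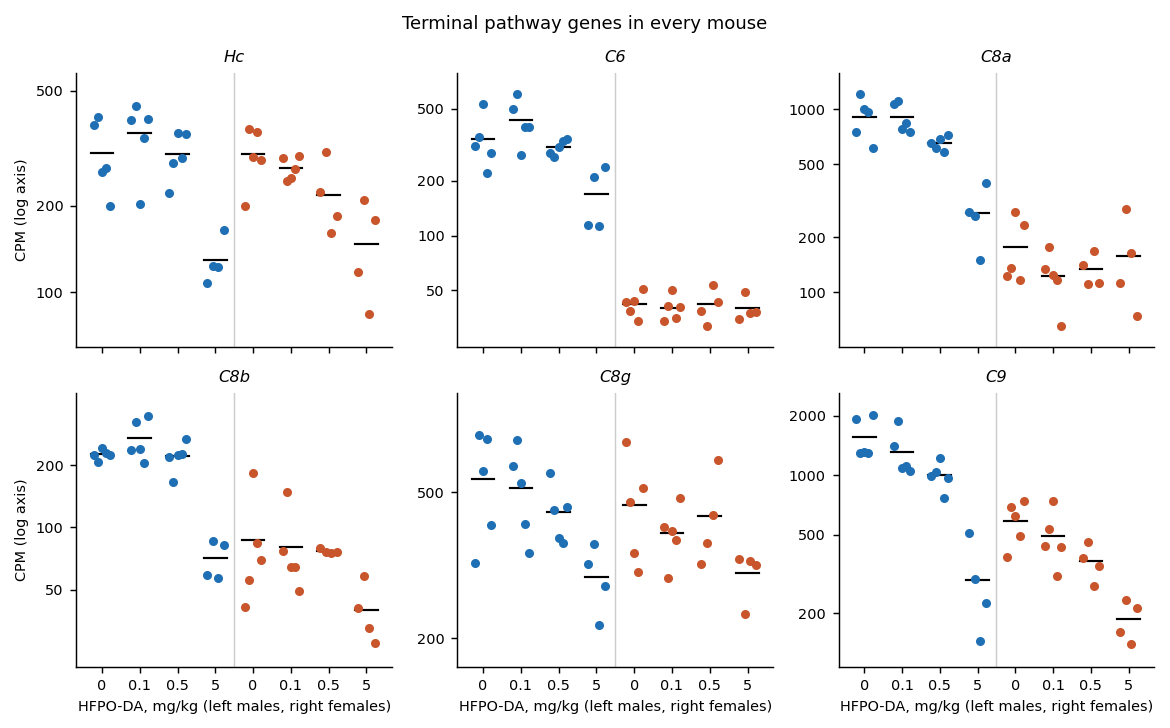
CPM on log axes of 6 terminal pathway genes in every mouse (points) with the mean of each group (lines), by dose in males (blue, left) and females (orange, right). C9 is lower at 5 mg/kg in both sexes, and C6, C8a, C8b and C9 are higher in male than in female controls.

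In the classical arm, C4b encodes C4, the larger subunit of the classical and lectin C3 convertase before it is cleaved. C4b was at 76.6, 253, 97.4, 94.9 and 85.4 CPM in male controls, of which 253 belongs to male control 2, and at 31.4, 36.3, 27.8 and 51 CPM in males at 5 mg/kg. In females C4b was at 91.6, 103, 59.1, 65.6 and 149 CPM in controls and at 53.1, 153, 84.4 and 60.0 CPM at 5 mg/kg. Males at 5 mg/kg lay below every male control, and the female groups overlapped. The C4b log2 fold change was -1.72 in males (SE 0.32, adjusted p = 0.000224 by edgeR) and -1.30 without male control 2 (adjusted p = 0.0021 by edgeR), and -0.09 (SE 0.30) in females. The near-identical gene C4a was not among the gene symbols of the assay, and whether its transcripts bind the C4b probes was not tested.

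C2, the protease subunit of the same convertase, was at 216, 348, 272, 241 and 142 CPM in male controls and at 79.5, 159, 117 and 172 CPM in males at 5 mg/kg, and the groups overlapped. In females C2 was at 228, 263, 132, 217 and 277 CPM in controls and at 133, 197, 195 and 145 CPM at 5 mg/kg. The C2 log2 fold change was -0.88 (SE 0.23, adjusted p = 0.0086 by edgeR) in males, -0.60 and not past the threshold without the 4 mice of fewer than 5000000 counts, and -0.42 (SE 0.22, adjusted p = 0.48 by edgeR) in females.

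C1ra encodes the protease C1r, and its near-identical neighbor C1rb has probes of its own, between which reads could be shared. C1ra was at 61.9, 130.1, 62.3, 57.9 and 113 CPM in male controls and at 38, 39.3, 41.6 and 81 CPM in males at 5 mg/kg. In females C1ra was at 77.2, 112, 98.3, 107 and 101 CPM in controls and at 52.6, 48.2, 46.7 and 66.4 CPM at 5 mg/kg. The female groups were apart, and 1 male at 5 mg/kg, at 81 CPM, lay among the male controls. C1ra was lower by a log2 fold change of -0.89 (SE 0.26, adjusted p = 0.0467 by edgeR) in females and -0.76 (SE 0.26, adjusted p = 0.0642 by edgeR) in males, where without male control 2 it was at -0.59 (adjusted p = 0.164 by edgeR) and did not pass. The male C1ra call was kept in 12 of 22 alternative settings. It was also lost on leaving out male control 5, male 5 mg/kg 1, 2 or 3, or the 4 mice of lowest total count. The other male losses were at a threshold of 0.05, by limma-voom, with library size alone and with each sex fitted apart. In females the C1ra call was lost on leaving out control 2 or mouse 1, 2 or 3 of the 5 mg/kg group. The adjusted p in females was then at most 0.176 by edgeR. The genes C1qa, C1qb and C1qc of the recognition protein C1q, which resident macrophages make, passed in neither sex. Their log2 fold changes lay between -0.34 and 0.07 in males and between 0.31 and 0.72 in females. Of the 9 markers of Kupffer cells and macrophages, 0 passed by edgeR at 5 mg/kg in either sex, and 0 had an unadjusted p below 0.05. Their summed level was 73.9 to 314 CPM in male controls and 91.0 to 287 CPM in males at 5 mg/kg, and 161 to 317 CPM and 163 to 386 CPM in the corresponding females.

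In the lectin arm, Masp1 encodes a protease that associates with mannose-binding lectin. Masp1 was at 77.9, 113, 86.8, 86.1 and 87 CPM in male controls and at 62.5, 54.5, 73.1 and 33.2 CPM in males at 5 mg/kg. In females Masp1 was at 131, 147, 127, 142 and 107 CPM in controls and at 61.7, 66.9, 68.4 and 84.8 CPM at 5 mg/kg. No treated mouse reached a control of its sex. The Masp1 log2 fold change was -0.70 (SE 0.18, adjusted p = 0.0104 by edgeR) in males, -0.63 without male control 2, and -0.89 (SE 0.18, adjusted p = 0.00116 by edgeR) in females.

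Mbl2, which encodes mannose-binding lectin C, was lower in females, at 251, 198, 215 and 222 CPM against 334, 394, 326, 328 and 312 CPM in controls (log2 fold change -0.61, SE 0.19, adjusted p = 0.0746 by edgeR). This Mbl2 call was kept in 15 of 22 alternative settings and was lost on leaving out female control 1, 2 or 4 or female 5 mg/kg mouse 2, 3 or 4, with adjusted p of up to 0.221 by edgeR. In males the Mbl2 value was -0.44 (SE 0.19, adjusted p = 0.155 by edgeR). Its paralog Mbl1 was at 421 to 555 CPM in males at 5 mg/kg, below all male controls (564 to 965 CPM), but did not pass (log2 fold change -0.44, adjusted p = 0.139 by edgeR). Fcna, which encodes ficolin A, was at 17.7, 8.5, 0 and 8.34 CPM in males at 5 mg/kg and at 13.1, 33.3, 24.9, 32.3 and 20.7 CPM in male controls (log2 fold change -1.49, SE 0.51, adjusted p = 0.0599 by edgeR). The Fcna call was kept in 17 of 22 alternative settings and was lost on leaving out male control 2 (adjusted p = 0.103 by edgeR). It was also lost without male 5 mg/kg 3, the mouse at 0 CPM, which had the lowest total of all mice (2101495 counts). The other losses were at a threshold of 0.05, by limma-voom and with each sex fitted apart. Masp2, which cleaves C4 and C2, and the collectin genes Colec10 and Colec11 passed in neither sex, with log2 fold changes of -0.19, -0.44 and 0.76 in males and -0.20, -0.78 and -0.14 in females.

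In the alternative arm, Cfb encodes factor B, the protease subunit of the alternative C3 convertase. Cfb was at 1379, 2271, 999, 1448 and 1128 CPM in male controls and at 727, 713, 663 and 989 CPM in males at 5 mg/kg. In females Cfb was at 1464, 1790, 1464, 1779 and 1637 CPM in controls and at 919, 1179, 1085 and 1125 CPM at 5 mg/kg. The groups did not overlap in either sex, although the highest treated male and the lowest male control differed by 989 against 999 CPM. The Cfb log2 fold change was -0.90 (SE 0.17, adjusted p = 0.000252 by edgeR) in males, -0.71 without male control 2 (adjusted p = 0.00152 by edgeR), and -0.59 (SE 0.17, adjusted p = 0.0333 by edgeR) in females, where the Cfb call was lost without female 5 mg/kg 1 (adjusted p = 0.166 by edgeR).

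C3, the protein on which the 3 routes converge, was at 2721 to 3532 CPM in 4 male controls and at 6336 CPM in male control 2, and at 1981 to 3564 CPM in males at 5 mg/kg. Its log2 fold change in males was -0.53 (SE 0.20, adjusted p = 0.0987 by edgeR) and -0.30 without male control 2 (adjusted p = 0.345 by edgeR). The C3 call was kept in 9 of 22 alternative settings, and with all mice kept it was also lost with other scalings, by DESeq2 and by limma-voom. In females the C3 value was -0.40 (SE 0.20, adjusted p = 0.423 by edgeR). The further probes of C3 read -0.46 and -0.06 in males and 0.14 and 0.22 in females, and none of them passed. In females their sign was thus opposite to that of the main probe. Cfp, the gene of properdin, had 11 counts over all male controls and 28 over males at 5 mg/kg. All 11 were in male control 2, and without it Cfp passed the threshold as higher in males (adjusted p = 0.0778 by edgeR, background 3.59%) against 4 controls with a count of 0. The 2 males at 5 mg/kg in which Cfp was seen were at 1.66 and 2.01 CPM. Cfd had 3 counts over all male controls and 0 over males at 5 mg/kg.

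Among the regulators, Cfi, which encodes the protease factor I that cleaves C3b and C4b, was at 153, 217, 134, 155 and 110.1 CPM in male controls and at 68.2, 62.3, 49.9 and 53.5 CPM in males at 5 mg/kg. In females Cfi was at 211, 257, 184, 225 and 272 CPM in controls and at 107, 134, 108 and 97.7 CPM at 5 mg/kg. Neither sex showed overlap, and the treated groups had SDs of 8.32 and 15.7 CPM. The Cfi log2 fold change was -1.39 (SE 0.17, adjusted p = 6.31e-08 by edgeR) in males and -1.04 (SE 0.16, adjusted p = 2.33e-05 by edgeR) in females. These were the second smallest adjusted p of the members in males and the smallest in females.

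Cpn2, the regulatory subunit of carboxypeptidase N, which inactivates C3a and C5a, was at 75.4, 107, 71, 48 and 60.7 CPM in male controls and at 44.1, 47.4, 40.1 and 30.9 CPM in males at 5 mg/kg. In females Cpn2 was at 105, 91.8, 72.4, 74.2 and 84.8 CPM in controls and at 38.2, 31.3, 53.1 and 41.6 CPM at 5 mg/kg, and neither sex showed overlap. The Cpn2 log2 fold change was -0.83 (SE 0.23, adjusted p = 0.0142 by edgeR) in males and -1.06 (SE 0.23, adjusted p = 0.00191 by edgeR) in females. Cpn1, the catalytic subunit of the same enzyme, was at 0.26 and 0.09 and passed in neither sex.

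Serping1 encodes C1 inhibitor, which also controls kallikrein and factor XII. Serping1 was at 229.9, 355, 214, 209 and 153 CPM in male controls and at 109, 123, 74.3 and 103 CPM in males at 5 mg/kg. In females Serping1 was at 236, 242, 172, 214 and 244 CPM in controls and at 144, 227, 156 and 165 CPM at 5 mg/kg. The groups were apart in males and overlapped in females. The Serping1 log2 fold change was -1.18 (SE 0.19, adjusted p = 3.06e-05 by edgeR) in males, -1.01 without male control 2, and -0.36 (SE 0.19, adjusted p = 0.468 by edgeR) in females.

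Vtn encodes vitronectin, which binds the terminal complex in solution. Vtn was at 960.4, 1589, 1363, 1407 and 1122 CPM in male controls and at 654, 605, 526 and 807 CPM in males at 5 mg/kg, with no overlap. In females Vtn was at 1337, 965, 793, 711 and 982 CPM in controls and at 651, 757, 651 and 517 CPM at 5 mg/kg, where 1 treated mouse exceeded the lowest control. The Vtn log2 fold change was -0.99 (SE 0.19, adjusted p = 0.000413 by edgeR) in males and -0.57 (SE 0.19, adjusted p = 0.1 by edgeR, just above the threshold) in females. C4bp, the gene of C4-binding protein, was lower in males, at 64.1, 41.3, 4.88 and 51.3 CPM against 54.2 to 136 CPM in controls (log2 fold change -1.17, SE 0.35, adjusted p = 0.0278 by edgeR). Clu (clusterin), Cd55 and Cd59a passed in neither sex on their main probes, although a further probe of Clu was lower in males and Cd59a passed in males without the 4 mice of fewer than 5000000 counts. Cd55 and Cd59a, whose proteins sit on cell membranes, had at most 25.5 and 15.7 CPM in any mouse. The receptor gene C5ar1 had at most 4.24 CPM.

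**Figure D4:**
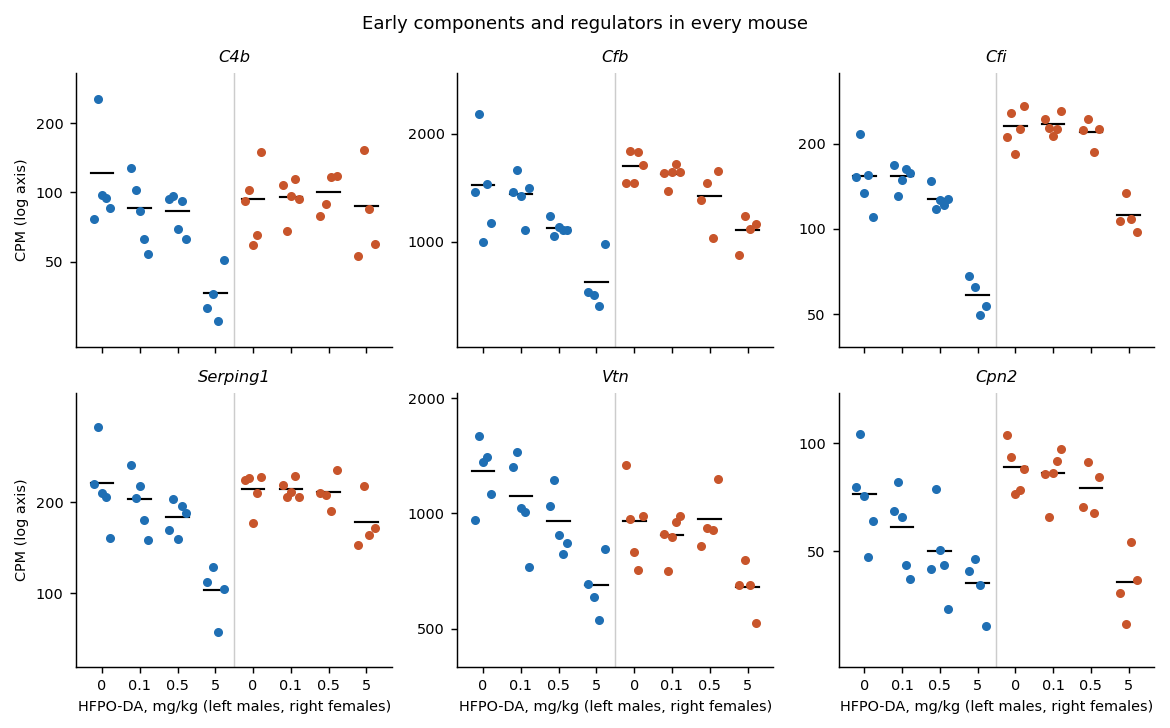
CPM on log axes of C4b, Cfb, Cfi, Serping1, Vtn and Cpn2 in every mouse (points) with the mean of each group (lines), by dose in males (blue, left) and females (orange, right). For all 6 genes every male at 5 mg/kg lies below every male control, and male control 2 is the highest male control for each of them.

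The lower doses gave few calls. At 0.1 mg/kg, edgeR, DESeq2 and limma-voom each called 0 members in either sex, and edgeR called 0% of all probes in males and 0% in females. Before adjustment, p was below 0.05 for 0 members in males and for 1 in females (Cpn1, log2 fold change -0.42), where it was so for 2.38% of all probes. At 0.5 mg/kg in females, the 3 tools again called 0 members, edgeR called 0.00539% of all probes lower, and p before adjustment was below 0.05 for 2 members (C9, log2 fold change -0.68, and Masp1, -0.41), or 6.06% of the 33, against 4.33% of all probes. In males at 0.5 mg/kg 1 member, C2, was lower, where 0.242% of all probes were lower. C2 was at 181, 90.1, 113, 142 and 166 CPM in these mice and at 194, 255, 209, 215 and 246 CPM in males given 0.1 mg/kg, against 142 to 348 CPM in male controls (log2 fold change at 0.5 mg/kg -0.81, SE 0.21, adjusted p = 0.0775 by edgeR). Without male control 2 the C2 value was -0.65 (adjusted p = 0.263 by edgeR), 0 members passed, and the background was 0.113%. Before adjustment p was below 0.05 for 8 members in this group, all lower (C2, C3, Cfb, C9, Serping1, Clu, Vtn and Cpn2), against 10.3% of all probes. Leaving out male control 2, there were 3 (C2 and C9, lower, and Cfp, which had a count of 0 in the other 4 controls), or 9.09% of the 33 against 10.2% of all probes.

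The group means fell at each step from control to 5 mg/kg for 16 of the 33 members in males, where this held for 8.97% of all probes, and for 9 of the 33 in females, where it held for 7.8%. The male count and the male percentages below are given only with male control 2 included. The median log2 fold change of the 33 members at 0.1 mg/kg in males was -0.11 with that mouse and 0.02 without it. The male median at the first step therefore depended on that control, and the falls of single genes were not recomputed without it. Male 0.1 mg/kg 1, which had the next highest acute phase sum, was kept in both. In order of rising dose, the male means of C9 were 83.4%, 63.9% and 18.8% of the control mean, and the female means were 84.0%, 62.6% and 31.9%. C8b in males was at 119%, 97.6% and 31.5%, so that its decrease was seen between 0.5 and 5 mg/kg. Cfi was likewise at 101.7%, 95.8% and 48.6% in females. Comparing 5 with 0.5 mg/kg, 12 members were lower in males (C1ra, C4b, Masp1, Cfb, Hc, C6, C8a, C8b, C9, Cfi, Serping1 and Vtn) and 1 was higher (Cpn1, log2 fold change 0.49, adjusted p = 0.0727 by edgeR), where 5.57% of all probes were lower and 3.16% higher. With library size alone 40.1% of the probes called in this comparison were lower, against 63.8% with TMM. That scaling left 9 members lower, where 774 of 18570 probes were lower. Without the 4 mice of fewer than 5000000 counts, 5 members were lower in this comparison, where 684 of 20794 probes were lower. In females 4 members were lower (Mbl2, C9, Cfi and Cpn2), where 0.84% of all probes were lower. This female count was 1 without female 0.5 mg/kg 4 and 7 by DESeq2, which called 275 of 18570 probes lower.

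**Figure D5:**
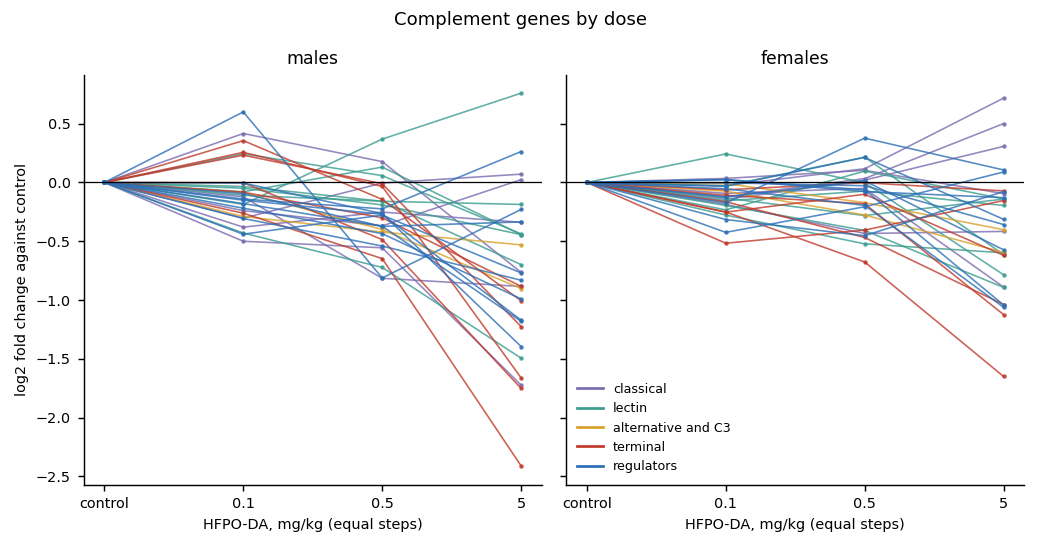
Log2 fold change of each dose group against the control of its sex for 30 complement genes, 1 line per gene colored by arm, in males (left) and females (right). The doses are drawn at equal steps, and C9 ends lowest in both sexes, at -2.41 in males and -1.65 in females.

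The dose effects of males and females were compared as an interaction, in which a negative value is a larger decrease in males. At 5 mg/kg 2 members differed, C4b (difference of log2 fold changes -1.63, SE 0.43, adjusted p = 0.0912 by edgeR) and C8a (-1.60, SE 0.40, adjusted p = 0.0643 by edgeR), where 0.463% of all probes had a negative difference past the threshold. Negative differences were 73.5% of all those called, and 60.0% with library size alone, where 0 members were called. Without male control 2 neither passed (C4b -1.19 and C8a -1.49, with adjusted p of 0.242 and 0.116 by edgeR), and the background was 0.345%. Both calls were also lost on leaving out male 5 mg/kg 3, female control 1, 2 or 4, or female 5 mg/kg 2 or 3. C6 (-0.93), Serping1 (-0.82) and C9 (-0.76) had p below 0.05 before adjustment and adjusted p of 0.26, 0.227 and 0.438 by edgeR. With C4b and C8a these were 15.2% of the 33, against 10.7% of all probes. The other members called in 1 sex alone were not shown to differ between the sexes. At 0.5 mg/kg edgeR called 0 members, with 0.0108% of all probes called in either direction, and at 0.1 mg/kg 0 members and 0% of probes. DESeq2 and limma-voom also called 0 members at both doses, and p before adjustment was below 0.05 for 0 members.

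Male and female controls differed most in the terminal arm. Of the 33 members, 4 were higher in male controls, where 1.24% of all probes were higher, and all 4 are terminal genes (C6, C8a, C8b and C9). Another 2 were lower in males (Mbl2 and Cfi), where 1.36% of all probes were lower. With library size alone 75.7% of the probes called between controls were lower in males, against 52.4% with TMM. Again 4 members were higher, where 157 of 18570 probes were higher. C6 was at 311, 351, 532, 221 and 284 CPM in male controls and at 42.9, 38.2, 43.4, 33.7 and 51 CPM in female controls, 8.12-fold higher in males (log2 fold change 3.02, SE 0.23, adjusted p = 1.94e-13 by edgeR). C8a was 5.17-fold higher (2.37, SE 0.28, adjusted p = 6.31e-08 by edgeR), C9 2.68-fold (1.42, SE 0.24, adjusted p = 0.000117 by edgeR) and C8b 2.59-fold (1.37, SE 0.27, adjusted p = 0.00095 by edgeR). The male and female controls of these 4 genes did not overlap. Hc (log2 fold change 0.01) and C8g (0.23) did not pass. Without male control 2 the same 4 genes were higher, at a background of 1.3%, and 4 were lower, with Masp1 and C3 beside Mbl2 and Cfi, at a background of 1.43%. At 5 mg/kg the male means of C6 and C8a, 169 and 271 CPM, were still above the female control means of 41.8 and 176 CPM, whereas those of C8b and C9, 71 and 294 CPM, were below 86.8 and 584 CPM.

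These 4 genes lie on 2 chromosomes (RefSeq genes, GRCm38.p6). C8b (chromosome 4, 104766317 to 104804548) and C8a (104815679 to 104876487) are neighbors. C6 (chromosome 15, 4727067 to 4804045), C7 (4987750 to 5063773) and C9 (6445346 to 6498825) lie on chromosome 15 in this order. Because the genes shared a sex difference in controls and were lower at 5 mg/kg in males, the promoters of C8b and C9 are printed below as the 250 bases before the start site, from the RefSeq promoter table (GRCm38.p6), 5′ to 3′ on the strand of the gene. Those of C6 and C8a are not printed, since the start sites of the table lie inside the spans given above. The motifs searched on either strand were TATAAA for the TATA box, GTTAAT as part of the site of HNF1, CAAAGTCCA for HNF4, TTGCNNAA for C/EBP, TTCNNNGAA for STAT, and AGGTCAAAG for the direct repeat bound by PPAR with RXR. Capitals mark their matches.
C8b (chr4:104766067-104766316, plus strand): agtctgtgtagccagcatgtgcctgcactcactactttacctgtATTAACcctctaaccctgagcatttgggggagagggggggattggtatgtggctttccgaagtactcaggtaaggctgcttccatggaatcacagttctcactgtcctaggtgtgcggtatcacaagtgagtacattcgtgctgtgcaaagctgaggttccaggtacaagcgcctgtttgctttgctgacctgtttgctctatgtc
C9 (chr15:6445096-6445345, plus strand): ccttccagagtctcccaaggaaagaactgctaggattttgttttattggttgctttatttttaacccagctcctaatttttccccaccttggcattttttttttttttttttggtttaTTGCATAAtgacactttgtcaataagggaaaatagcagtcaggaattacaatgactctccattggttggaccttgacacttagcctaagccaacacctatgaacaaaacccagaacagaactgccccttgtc

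The C8b promoter held GTTAAT on the reverse strand, at -206 to -201 from the start, and the C9 promoter held a C/EBP match at -132 to -125. The C8a window held a GTTAAT at -107 to -102 and a STAT match at -228 to -220, and the C6 window held no match to these letters. Promoters of 300 bases, 50 of them after the start, were in the table for 26 of the 35 members. GTTAAT was found in 10 of the 26 (38.5%) and in 8.24% of the 27025 genes of the table, and the STAT motif in 7 (26.9%) and in 9.55%. TATAAA was found in 6 (23.1%) and in 15.7%, and the C/EBP motif in 4 (15.4%) and in 12.2%. The HNF4 and PPAR motifs, present in 0.555% and 0.488% of genes, were found in 0 of the 26. The motifs can overlap on a promoter, these matches describe letters only, and no binding was measured.

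Other probes of the same genes gave a second reading. Of 22 further probes of 16 members that passed the filter, 20 had the sign of the main probe at 5 mg/kg in males and 17 in females. For members called lower, all 15 further probes in males and all 7 in females had the same sign, and 9 and 5 of them passed the threshold in the same direction. For members not called on their main probe, further probes passed as lower for Clu in males (log2 fold change -0.95, adjusted p = 0.0225 by edgeR) and for C2 (-0.75, adjusted p = 0.0981 by edgeR) and Vtn (-1.01, adjusted p = 0.0364 by edgeR) in females. The most abundant further probe of C9 read -2.05 (males) and -1.84 (females) on the log2 scale. The further probe of C8a gave -0.96 in males (adjusted p = 0.12 by edgeR), -0.54 in females and 1.95 between controls. With the counts of all probes of a gene summed, 0 members differed between the sexes in the 5 mg/kg effect.

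Of 23 pathway genes that are not members, 17 were tested, and 6 were lower and 0 higher at 5 mg/kg in males (6 also without male control 2) and 3 lower and 0 higher in females. C1s1, the protease partner of C1r, was lower in both sexes (log2 fold change -1.71 in males and -1.95 in females, adjusted p = 7.72e-06 and 1.12e-06 by edgeR), as was Cfhr2 (-0.81 and -1.01). Genes of other secreted liver proteins were read beside them. Of 19 coagulation genes, 16 were lower in males (median -0.85), 13 of 19 without male control 2, and 13 in females (median -0.69). F7 and F11, the genes of coagulation factors VII and XI, read -1.93 and -1.83 in males and -1.72 and -1.45 in females on the log2 scale, and Kng1, which encodes kininogen, read -1.21 and -1.04. Of 14 acute phase genes, 12 were lower in males (median -2.04) but 6 without male control 2 (median -0.44), and 3 were lower in females (median -0.46). Crp, Itih3 and Itih4 were the 3 acute phase genes lower in both sexes (log2 fold changes -1.11, -1.37 and -2.14 in males and -0.77, -0.97 and -1.23 in females). Of 10 transcription factor genes known for the control of complement genes in liver, 3 were lower in males (Stat3, -0.91, Cebpd, -1.26, and Nr1h4, -0.53), and 1 without male control 2. In females 0 passed by edgeR, and an unadjusted p below 0.05 was seen for 1 that was lower and 2 that were higher. Cebpd went the other way in females, with means of 9.45 CPM in controls and 18.2 CPM at 5 mg/kg. Hnf4a read -0.35 in males and -0.21 in females.

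Markers of cell types were read beside these results. The summed level of the 6 hepatocyte markers was 9493 to 16058 CPM in male controls and 10463 to 12056 CPM in males at 5 mg/kg, and 14223 to 20417 CPM and 13041 to 15427 CPM in females. Of the 6, 2 were lower in each sex (Cps1 and Asgr1 in males, Ttr and Asgr1 in females), and 1 of the 6 in males without male control 2, while Alb, at -0.16 and -0.25, passed in neither. Of the 8 neutrophil markers, 3 were tested and none passed by edgeR, and their summed level was 90.2 CPM at most in male controls, with a median of 7.89, and 3.71 to 36.8 CPM in males at 5 mg/kg. Endothelial markers counted 2 of 6 lower in males (Oit3 and Kdr) and 0 in females, with sums of 275 to 394 and 234 to 306 CPM in the male groups and 297 to 338 and 230 to 315 CPM in the female groups. Stellate cell, lymphocyte and cholangiocyte markers counted 0 of 8, 0 of 4 and 0 of 2 tested in either sex by edgeR, and at an unadjusted p below 0.05 the males had 1 stellate cell marker higher and 1 lymphocyte marker lower. The 4 adipocyte markers had at most 1.01 CPM in sum in any mouse, and all 4 were at 0 in males at 5 mg/kg. The part of these levels in the complement results was not tested.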

How the data were processed

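The authors deposited raw TempO-Seq counts per probe for 37 livers; per the submitters' processing notes, demultiplexing used bcl2fastq 2.17.1.14 and alignment used Bowtie, and no normalization was applied to the deposited counts. The table held 30146 probes of 21450 gene symbols, taken from the probe names. Members and lists were chosen with earlier results of these data known. Values of every mouse were given for members with the 8 smallest adjusted p among those called at 5 mg/kg in each sex, for members called at a lower dose or called higher than control, and for those whose effect differed between the sexes (13 genes), other members by range. Genes outside the members were named where called in both sexes at 5 mg/kg, at most 6 per list. The transcription factor, hepatocyte and endothelial genes, Saa1 and the single-mouse values of Mbl2, Fcna, C4bp and Cfp were added after their values were seen. Each mouse was 1 replicate.

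Probes passing filterByExpr (18570, of 13004 genes) were fitted in edgeR 4.0.16 (R 4.3.3) by the quasi-likelihood test, with TMM scaling, 1 mean for each of 8 groups and Benjamini-Hochberg adjustment over all probes, at an adjusted p under 0.10. CPM were TMM-scaled. The fit was tested on simulated counts. Alternatives were DESeq2 1.42.0, limma-voom (limma 3.58.1), other scalings, filters and thresholds, summed or thinned counts, and leaving out mice. Totals of 2101495 to 13878254 counts limited the precision for low genes. The fit estimated the spread between mice, beyond counting error, for every probe kept. Promoters and positions came from RefSeq GRCm38.p6. Figures were drawn with matplotlib 3.10.9.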

Additional observations from a re-analysis of the deposited data

Results flagged for a closer look

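Among the 13 complement genes given mouse by mouse, 104 groups of 4 or 5 mice were searched for a mouse far from the others of its group, and 4 were found, where chance alone flags about 1 group in 20. Male control 2 stood apart in C4b, at 253 CPM against 76.6 to 97.4 CPM in the other male controls. The same mouse stood apart in Masp1, at 113 CPM against 77.9 to 87 CPM, and it held the highest summed level of acute phase genes, 133060 CPM. Male 5 mg/kg 4 was at 81 CPM for C1ra, with the other 3 males of that dose at 38 to 41.6 CPM, and female 0.1 mg/kg 2 was at 149 CPM for C8b, with the other 4 at 49.1 to 76.4 CPM.

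The 5 mg/kg effect differed between the sexes by the interaction test for C4b (difference of log2 fold changes, male minus female, -1.63, SE 0.43, adjusted p = 0.0912 by edgeR) and for C8a (-1.60, SE 0.40, adjusted p = 0.0643 by edgeR). In males C4b and C8a were lower in 4 of 4 treated mice than in every control, and in females the groups overlapped for both genes. Neither difference passed without male control 2. Both were also lost on leaving out male 5 mg/kg 3, female control 1, 2 or 4, or female 5 mg/kg 2 or 3. Female 5 mg/kg 2, the highest of its group for C4b (153 CPM) and C8a (284 CPM), also had raised Saa1, at 2271 CPM. Age, number of doses and lactation cannot be told apart from sex.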

How the results depend on the processing

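No paired analysis was possible because the labels give no replicate numbers that the groups share. Of the 12 comparisons, the counts of members called at 5 mg/kg (18 in males, 9 in females), in female mice at 0.5 mg/kg (0), at 0.1 mg/kg (0), in the sex differences at the 2 lower doses (0) and between controls (6) stayed within 1.5 times of these values under every alternative that kept all mice. In males at 0.5 mg/kg the count of 1 went to 0 at a threshold of 0.05, by limma-voom, with each sex fitted apart and without mice of fewer than 5000000 counts. Between 5 and 0.5 mg/kg the male count of 13 was 8 with each sex fitted apart and 5 without those mice, and the female count of 4 was 2 at a threshold of 0.05 and 7 by DESeq2, by limma-voom and with each sex fitted apart. The 2 members with a sex difference at 5 mg/kg were 1 with RLE or upper quartile scaling and 0 at a threshold of 0.05, with library size alone, a robust fit, limma-voom, summed probes or without those mice. The cause was not tested.

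Leaving out 1 mouse at a time, the counts ranged from 15 to 19 (males, 5 mg/kg), 0 to 1 (males, 0.5 mg/kg), 7 to 10 (females, 5 mg/kg), 10 to 14 and 1 to 4 (5 against 0.5 mg/kg, males and females), 0 to 3 (sex difference at 5 mg/kg) and 4 to 8 (controls), and stayed at 0 elsewhere. In females at 5 mg/kg, where neither passed, C4b ranged from -0.52 to 0.14 and C8a from -0.61 to 0.081, so their signs turned. Under the other settings, 212 male and 142 female values of named genes for the highest dose kept their sign and call, and 22 and 1 kept their sign but no longer passed. On leaving out 1 mouse, 10 male and 12 female values no longer passed and 5 female values, all of C4b or C8a, turned. Low depth in treated males limits low genes such as Fcna, Cfp and C7.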
